A study of Mus musculus with 9 samples.

Results

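Glycolytic enzymes and lactate dehydrogenases were followed in nestin-reporter cells sorted from the dentate gyrus (DG) of the hippocampus and from the subventricular zone (SVZ) of adult mice. The 10 genes, chosen by name, encode the hexokinases Hk1 and Hk2, the phosphoglucose isomerase Gpi1, the aldolases Aldoa and Aldoc, the dehydrogenase Gapdh, the kinase genes Pgk1 and Pkm, and the lactate dehydrogenase subunits Ldha and Ldhb. All 10 were measured, out of 14477 genes in the table. RNA-seq libraries numbered 9, of which 5 held DG cells and 4 SVZ cells.

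All mice, in both groups, carried the B6.Cg-Tg(Nes-EGFP)1Yamm transgene, in which regulatory sequence of Nestin drives green fluorescent protein, and were kept untreated in standard housing. The labels give the animals as adult, with no age in weeks, and name the sorted cells nestin-positive precursors. Cells were taken on green fluorescence alone, so any cell in which the transgene was active could pass the gate. The labels do not say whether a library is 1 animal or a pool, and p-values therefore measure only the spread between these libraries, which may be partly technical.

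Glycolysis splits glucose into pyruvate in the cytosol and yields ATP and NADH without oxygen. Lactate dehydrogenase then converts pyruvate and lactate into each other, which restores NAD+. The active enzyme is a tetramer of A and B subunits: tetramers rich in A, the product of Ldha, are typical of glycolytic tissue, and those rich in B, the product of Ldhb, of oxidative tissue. In brain, astrocytes are known for strong glycolysis and for aldolase C. Neural stem cells are known to rely more on glycolysis than the neurons that they give rise to. Transcription of many glycolytic genes is known to be raised by hypoxia-inducible factors, which bind DNA at the core motif ACGTG or GCGTG.

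The promoters of Ldha, Ldhb and Aldoa are shown because the balance of the lactate dehydrogenase and aldolase genes differed between the regions. RefSeq (build GRCm38.p6) lists 16 promoter windows for the 10 genes. The stretch of 250 bases before the start was searched on both strands for ACGTG or GCGTG. Of the 16 windows, 12 held at least 1 match, against 38.6% of all 32851 RefSeq windows. ACGTG alone was in 6 of the 16, against 16.6% of all windows. A pair of the Aldoa windows overlap and share 1 match, which is counted in both. Capitals mark the matches, and a CACGTG counts on both strands because it reads the same on each. Ldha has a pair of listed starts. Windows that lie partly in annotated exons are not shown, which leaves out Aldoc and the other windows of Aldoa.
Ldha, chr7:46845554-46845803, plus strand: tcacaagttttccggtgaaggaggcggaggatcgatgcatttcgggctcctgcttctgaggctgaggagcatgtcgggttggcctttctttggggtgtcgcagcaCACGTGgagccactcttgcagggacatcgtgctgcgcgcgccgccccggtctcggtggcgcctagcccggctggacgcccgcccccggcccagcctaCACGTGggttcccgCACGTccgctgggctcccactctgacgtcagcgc
Ldha, chr7:46846832-46847081, plus strand: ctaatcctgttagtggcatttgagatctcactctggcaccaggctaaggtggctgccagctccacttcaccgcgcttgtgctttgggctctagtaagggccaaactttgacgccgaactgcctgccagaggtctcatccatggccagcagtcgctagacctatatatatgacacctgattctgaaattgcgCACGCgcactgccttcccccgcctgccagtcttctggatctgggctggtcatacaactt
Ldhb, chr6:142507958-142508207, minus strand: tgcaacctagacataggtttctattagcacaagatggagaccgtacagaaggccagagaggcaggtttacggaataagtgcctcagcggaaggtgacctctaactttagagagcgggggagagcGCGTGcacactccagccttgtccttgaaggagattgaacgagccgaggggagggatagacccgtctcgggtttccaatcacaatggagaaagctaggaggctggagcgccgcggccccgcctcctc
Aldoa, chr7:126799255-126799504, minus strand: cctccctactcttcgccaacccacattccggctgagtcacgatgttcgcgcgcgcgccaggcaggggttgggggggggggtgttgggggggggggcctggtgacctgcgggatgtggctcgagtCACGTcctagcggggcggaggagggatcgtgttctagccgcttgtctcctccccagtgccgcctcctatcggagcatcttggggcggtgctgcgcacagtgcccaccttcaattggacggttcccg
The first Ldha window held 5 matches, a number reached by 1.01% of all windows. The second Ldha window held 1 match, as did the Ldhb window. The longest principal transcript of Ldha (GENCODE M21) starts 49 bases from the second Ldha start and 1327 bases from the first. A match describes these letters and is not evidence of binding.

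Of the 10 genes, 6 were higher in DG cells, 1 was lower and 3 did not pass the test (limma, Benjamini-Hochberg adjusted p under 0.05 over all genes). Of all genes tested, 32.9% were called higher and 33.7% lower in DG, 66.6% in all, so a single call is common here. The genes higher in DG were Aldoc, Aldoa, Ldha, Gpi1, Hk1 and Pkm, and in all 6 the lowest DG library exceeded the highest SVZ library, which holds for 29.7% of all genes (58% do not overlap in either direction). Gapdh was the lower one, and its groups overlapped. The median log2 fold change of the 10 was 0.57, against -0.07 over all genes. Levels are given as log2 CPM, the log2 of a gene's reads scaled to a common library total (CPM), with a prior count of 1 read, and fold changes on the log2 scale, with SVZ subtracted from DG, each with its standard error (SE). Together the 10 genes took 0.808% to 1.17% of the reads in DG libraries and 0.307% to 0.411% in SVZ libraries. Without Aldoc, the other 9 took 0.429% to 0.522% in DG libraries and 0.278% to 0.329% in SVZ libraries.

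**Figure D1:**
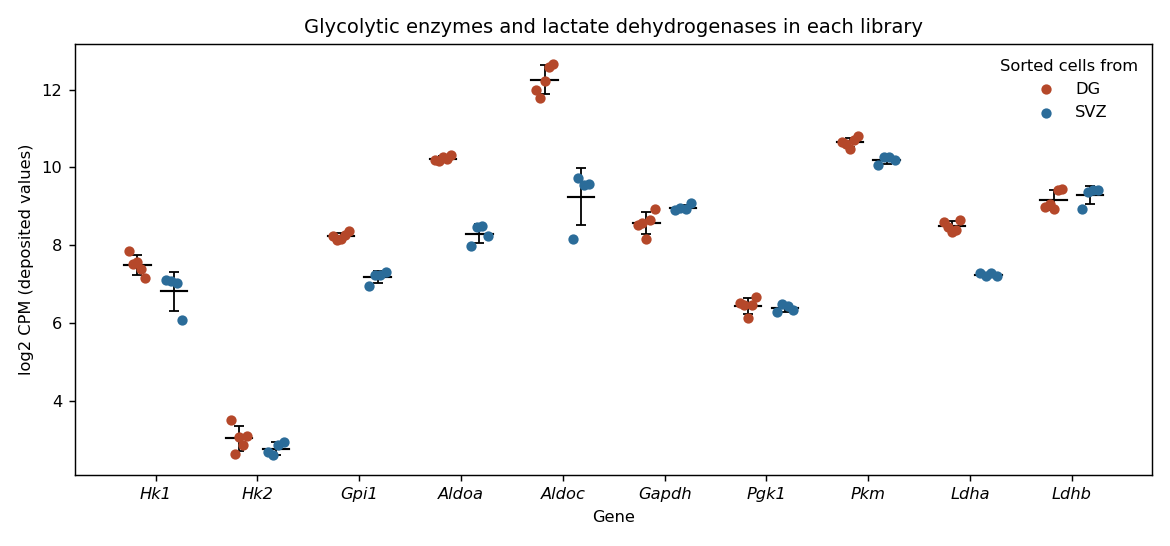
Log2 CPM (vertical axis) of each of the 10 genes (horizontal axis) in every library, with DG on the left and SVZ on the right of each pair. Points are libraries, and bars are the mean ± SD of 5 DG and 4 SVZ libraries. The groups do not overlap for Hk1, Gpi1, Aldoa, Aldoc, Pkm and Ldha, and overlap for Hk2, Gapdh, Pgk1 and Ldhb.

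The libraries differed in more than glycolysis. Total reads over the table were 33627909 to 41164044 in DG libraries and 31126803 to 32528255 in SVZ libraries. Of 8 markers of neural precursors, 2 were higher in DG (Fabp7 by 2.10 and Hes5 by 1.24), 4 were lower (Nes by -0.95, Sox2 by -1.11, Pax6 by -1.59 and Egfr by -1.41) and 2 did not pass. Their summed CPM was 838.7 to 1134 in DG and 885.6 to 935.5 in SVZ, with Fabp7 the most abundant in DG. Summed CPM over 8 astroglial markers was 13470 to 19610 in DG and 1654 to 2891 in SVZ. Over 8 endothelial markers it was 668.9 to 1488 in DG and 5.85 to 39.2 in SVZ, and over 8 pericyte and smooth muscle markers 5202 to 10850 in DG and 70.3 to 164.1 in SVZ. Fibroblast and meningeal markers, 6 of 6 higher in DG, summed to 646.4 to 1386 CPM in DG and 24.7 to 86.0 in SVZ. Of the oligodendrocyte lineage markers 7 of 8 were higher, with sums of 2526 to 4298 in DG and 1087 to 2274 in SVZ. Neuroblast markers ran the other way, at 4869 to 7309 in DG and 18020 to 21090 in SVZ, as did 6 proliferation markers, at 814.6 to 1206 and 3412 to 3967. Erythrocyte markers, 5 of 5 higher in DG, summed to 81.05 to 210.2 CPM in DG and 30.07 to 75.22 in SVZ. No marker of these lists was without reads in a whole group. Library DG 2 stood out for neuroblast markers, DG 3 for those of mature neurons (summed CPM 784.2, against 181.4 to 231.9 in the other DG libraries) and SVZ 1 for endothelial markers. The part of these cell types in the results below was not tested. In sorted bulk samples, fewer cells of a type and less RNA per cell cannot be told apart.

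Glucose is first trapped in the cell by hexokinase. Hk1, the form found in most brain cells (ENSMUSG00000037012, chromosome 10, 62268855 to 62379908, minus strand, mm10), stood at 7.86, 7.53, 7.58, 7.38 and 7.16 log2 CPM in DG libraries 1 to 5, and at 7.10, 7.08, 7.01 and 6.06 in SVZ libraries 1 to 4. The DG libraries were all higher, but SVZ 4 lay about 1 log2 unit under the rest of its group, and DG 5 was within 0.1 of SVZ 1. The difference was 0.68 (SE 0.21, adjusted p = 0.0150), a 1.61-fold higher level in DG. Without SVZ 4 it was 0.43 (adjusted p = 0.0198), and without DG 2 and DG 3 together it was 0.65 and missed the threshold (adjusted p = 0.0564).

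Hk2, the inducible hexokinase of growing and hypoxic cells (ENSMUSG00000000628, chromosome 6, 82725025 to 82774454, minus strand), had few reads, 188 to 379 in a library. It stood at 3.50, 2.64, 3.07, 2.86 and 3.10 in DG and at 2.68, 2.60, 2.85 and 2.95 in SVZ. These ranges overlapped. The difference of 0.26 did not pass the test (95% interval -0.16 to 0.68, adjusted p = 0.244).

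Gpi1 turns glucose 6-phosphate into fructose 6-phosphate (ENSMUSG00000036427, chromosome 7, 34201330 to 34230336, minus strand). Its levels were 8.23, 8.15, 8.15, 8.26 and 8.37 in DG and 6.96, 7.25, 7.22 and 7.32 in SVZ. Both groups were tight, with a gap between them several times the spread within either. The difference was 1.04 (SE 0.09, adjusted p = 2.55e-06), a 2.06-fold higher level in DG.

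The largest differences were at the aldolase step, which splits the hexose into a pair of triose phosphates. Aldoc, the brain form that marks astrocytes and radial glia (ENSMUSG00000017390, chromosome 11, 78322968 to 78327781, plus strand), stood at 12.00, 11.79, 12.22, 12.58 and 12.67 in DG, against 8.17, 9.72, 9.54 and 9.57 in SVZ. DG 2 was the lowest DG library and SVZ 1 the lowest of all. The difference was 3.0 (SE 0.30, adjusted p = 6.53e-06), an 8.03-fold higher level in DG, and 2.64 without SVZ 1.

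Aldoa, the form of muscle and most other cells (ENSMUSG00000030695, chromosome 7, 126795234 to 126800751, minus strand), stood at 10.19, 10.15, 10.26, 10.22 and 10.31 in DG and at 7.99, 8.47, 8.50 and 8.24 in SVZ. The DG libraries agreed within 0.2 log2 units. The level in DG was 3.81 times that in SVZ (1.93, SE 0.11, adjusted p = 9.32e-08), the smallest adjusted p of the 10 genes.

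The astroglial markers moved with both aldolases. Their mean was 9.05 to 9.64 log2 CPM in DG libraries and 6.73 to 7.51 in SVZ libraries, with SVZ 1 lowest, as for Aldoc and Aldoa. Taken relative to that mean within each library, Aldoc was higher by 2.65, 2.75, 2.86, 3.10 and 3.03 in DG and by 1.44, 2.21, 2.17 and 2.44 in SVZ, so the groups stayed apart. Aldoa on the same scale was higher than the mean by 0.68 to 1.11 in DG and by 0.96 to 1.25 in SVZ, which overlapped. The other 8 genes lay lower in every DG library than in any SVZ library on this scale. All 8 astroglial markers were themselves higher in DG, with a median log2 fold change of 1.99. A gene that differed less between the regions therefore tends to lie lower here, as Pgk1 does with a difference of only 0.06. The share of all genes that do so was not computed. These within-library differences describe the samples and were not tested.

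**Figure D2:**
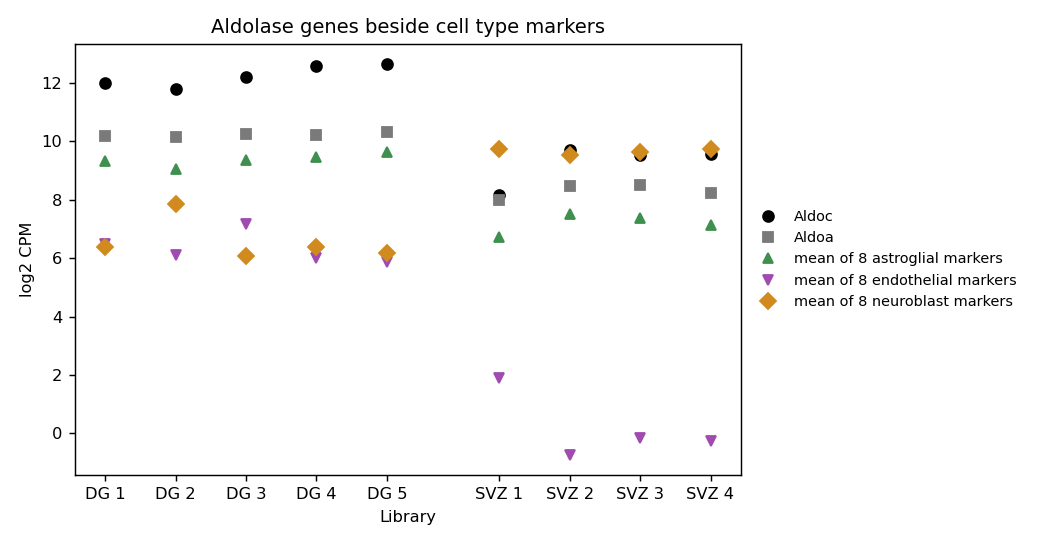
Log2 CPM (vertical axis) of Aldoc and Aldoa and the mean log2 CPM of 3 marker lists in each of the 5 DG and 4 SVZ libraries (horizontal axis). Aldoc, Aldoa and the astroglial mean (9.05 to 9.64 in DG, 6.73 to 7.51 in SVZ) are lowest in SVZ 1, and the endothelial mean is highest in SVZ 1 among the SVZ libraries.

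Gapdh, which oxidises glyceraldehyde 3-phosphate and makes NADH, is widely used to normalise expression (ENSMUSG00000057666, chromosome 6, 125161715 to 125166467, minus strand). It stood at 8.53, 8.57, 8.15, 8.65 and 8.93 in DG and at 8.89, 8.97, 8.94 and 9.07 in SVZ. DG 5 lay above SVZ 1, and DG 3 was the lowest library. The SVZ level was 1.32 times the DG level (-0.40, SE 0.13, adjusted p = 0.0190), but the call was lost without SVZ 4 (-0.37, adjusted p = 0.0501) and without DG 2 and DG 3 together (-0.27, adjusted p = 0.0529). The annotation holds 74 other genes with a transcript at least 95% identical to Gapdh over 200 bases or more, so reads of Gapdh may have been lost or split in a way the counting step decided, and its level is uncertain.

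Pgk1, the X-linked kinase that makes the first ATP of the pathway (ENSMUSG00000062070, chromosome X, 106187100 to 106203699, plus strand), stood at 6.51, 6.45, 6.12, 6.47 and 6.67 in DG and at 6.27, 6.50, 6.45 and 6.33 in SVZ. The ranges overlapped, and the difference was 0.06 (95% interval -0.20 to 0.31, adjusted p = 0.675). Similar transcripts of 4 other genes make its level less certain too, as do those of 3 other genes for Ldha and 1 each for Gpi1, Pkm and Ldhb.

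Pkm encodes pyruvate kinase M, which makes pyruvate and ATP (ENSMUSG00000032294, chromosome 9, 59656368 to 59679375, plus strand). It stood at 10.64, 10.61, 10.47, 10.70 and 10.80 in DG and at 10.05, 10.26, 10.25 and 10.19 in SVZ. Every DG library was higher, by a modest margin. The difference was 0.45 (SE 0.09, adjusted p = 8.07e-04), or 1.37-fold. The gene makes the M1 and M2 forms by choice of exon, and the table of whole genes does not separate them.

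Ldha (ENSMUSG00000063229, chromosome 7, 46841475 to 46855627, plus strand) stood at 8.59, 8.48, 8.34, 8.40 and 8.65 in DG and at 7.27, 7.20, 7.27 and 7.20 in SVZ. The SVZ libraries agreed within 0.1 log2 units, and no DG library came within 1 of them. The DG level was 2.39 times the SVZ level (1.25, SE 0.08, adjusted p = 3.52e-07).

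Ldhb (ENSMUSG00000030246, chromosome 6, 142490249 to 142507957, minus strand) stood at 8.97, 9.05, 8.94, 9.42 and 9.45 in DG and at 8.94, 9.37, 9.43 and 9.42 in SVZ. The ranges overlapped almost fully. The difference was -0.12 (95% interval -0.44 to 0.19, adjusted p = 0.465).

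The isozyme balance was compared within each library, where scaling cancels, after division of each level by transcript length. For Ldha over Ldhb, the log2 ratio of levels per kilobase was -0.82, -1.01, -1.03, -1.46 and -1.24 in DG and -2.10, -2.61, -2.59 and -2.66 in SVZ. Ldhb was thus the more abundant mRNA in all 9 libraries, and less so in every DG library. Ldha made up 26.7% to 36.2% of the summed level per kilobase of both genes in DG libraries and 13.7% to 18.9% in SVZ libraries. The ratio was 2.60-fold higher in DG (difference 1.38, exact two-sided permutation test, p = 0.0159, the smallest that 9 libraries allow, adjusted p = 0.0238 over 3 ratios).

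For Aldoa over Aldoc the log2 ratio was -0.93, -0.76, -1.08, -1.48 and -1.47 in DG and 0.70, -0.37, -0.16 and -0.44 in SVZ. Aldoc was the more abundant aldolase mRNA in all DG libraries and in 3 of the 4 SVZ libraries, the exception being SVZ 1. With all annotated exons as the length, the SVZ 1 ratio was -0.02 and Aldoc was ahead in all 9 libraries. The ratio was lower in DG by 2.11-fold (difference -1.08, exact permutation p = 0.0159, adjusted p = 0.0238), and without SVZ 1 the difference was -0.82. Hk1 exceeded Hk2 in every library, with log2 ratios of 4.58 to 5.40 in DG and 3.63 to 5.00 in SVZ. That ratio did not differ beyond the spread (0.42, exact permutation p = 0.286, adjusted p = 0.286). With any SVZ library left out, the groups stayed apart for the lactate dehydrogenase and aldolase ratios. The adjusted p was then 0.0536 (exact permutation), and the unadjusted p was the smallest that 5 against 3 libraries allow.

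**Figure D3:**
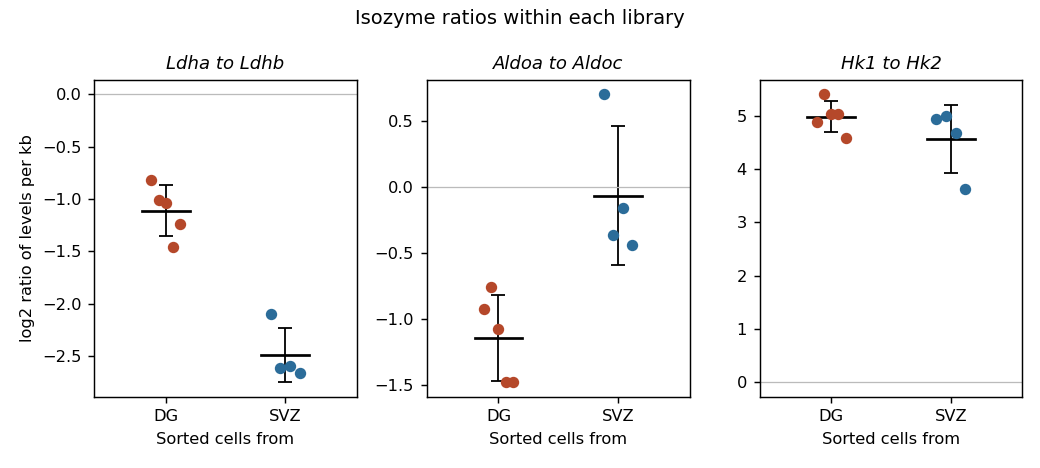
Log2 ratio of levels per kilobase (vertical axes, each with its own range) for 3 isozyme pairs in 5 DG and 4 SVZ libraries. Points are libraries and bars are mean ± SD. Ldha over Ldhb is higher in every DG library, Aldoa over Aldoc is lower in every DG library, and Hk1 over Hk2 overlaps.

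Mean levels per kilobase ordered the genes differently in the regions. In DG the order ran from Aldoc (10.77 log2 CPM per kilobase) through Aldoa (9.63), Pkm (9.36), Ldhb (8.78), Gapdh (8.06), Ldha (7.67) and Gpi1 (6.70) to Pgk1 (5.58), Hk1 (5.55) and Hk2 (0.57). Only Pgk1 and Hk1 were neighbours that differed by less than their spread (the larger SD of the pair). In SVZ the order began with Pkm (8.91) and Ldhb (8.90), followed by Gapdh (8.46), Aldoc (7.77), Aldoa (7.70), Ldha (6.42), Gpi1 (5.66), Pgk1 (5.52), Hk1 (4.87) and Hk2 (0.31). There the pairs of Pkm and Ldhb, Gapdh and Aldoc, Aldoc and Aldoa, and Gpi1 and Pgk1 differed by less than their spread. With all annotated exons as the length, Ldhb passed Pkm and Ldha passed Gapdh in DG, and Ldhb came first, Aldoc passed Gapdh and Pgk1 passed Gpi1 in SVZ. Aldoc came first in DG, and Hk1 and Hk2 last in both regions, with either length.

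The other enzymes of glycolysis were listed separately. Of 16 measured genes of that list, 8 were higher in DG, 2 were lower and 6 did not pass, beside 32.9% higher and 33.7% lower over all genes, with a median log2 fold change of 0.49 against -0.07 over all genes. The triose isomerase gene Tpi1 stood at 7.72 ± 0.20 in DG and 6.53 ± 0.18 in SVZ (SD, n = 5 and n = 4), a 2.28-fold difference (1.19, SE 0.12, adjusted p = 7.47e-06). Pfkp, the platelet form of phosphofructokinase, the main control point of the pathway, was higher by 0.96 (adjusted p = 1.34e-05), and the liver and muscle forms Pfkl and Pfkm were higher by 0.92 and 0.74. Part of the Pfkp transcript is shared with the neighbouring gene Pitrm1, which had up to 4776 reads, so its level is less certain. Eno1, the main enolase, was higher by 0.87 (adjusted p = 3.23e-05), with 3 other genes of similar transcript, among them Eno1b (up to 257 reads), and the neuronal enolase Eno2 by 1.50, with DG 3, the library with the most mature neuron markers, highest at 6.37. Hk3, a hexokinase of myeloid cells, was higher by 2.56, in libraries where 2 of 8 microglia and macrophage markers were higher in DG, the macrophage genes Mrc1 (5.38) and Pf4 (5.53), and 2 were lower, the microglial genes P2ry12 (-1.32) and Tmem119 (-1.43). All 8 together summed to 237.4 to 926.1 CPM in DG and 149.1 to 832.5 CPM in SVZ, and their part in the Hk3 result was not tested. Ldhd, a dehydrogenase of D-lactate, was higher by 1.95 (adjusted p = 7.30e-05) at only 28 to 266 reads in a library.

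The 2 genes lower in DG were weakly expressed. Eno4, an enolase known from sperm, averaged 0.99 ± 0.41 in DG libraries and 3.74 ± 0.41 in SVZ libraries (-2.75, adjusted p = 5.07e-06), in libraries whose 6 ependymal markers summed to 15.7 to 30.6 CPM in DG and 100.8 to 231.5 CPM in SVZ. Hkdc1, a hexokinase-like gene, differed by -1.38 (adjusted p = 0.00554) with 28 to 135 reads. Among those that did not pass were Pgam1 (0.24, adjusted p = 0.142), Bpgm (0.13, adjusted p = 0.360), Eno3 (-0.27, adjusted p = 0.356), Adpgk (-0.10, adjusted p = 0.712) and Pgam2 (-0.00, adjusted p = 0.994). Along the pathway, then, at least 1 isozyme gene was higher in DG at every step except those of Gapdh, Pgk1 and phosphoglycerate mutase. With 32.9% of all genes higher, a step with several isozyme genes had more chances of this. The hexokinase and enolase steps also held a lower gene, Hkdc1 and Eno4.

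**Figure D4:**
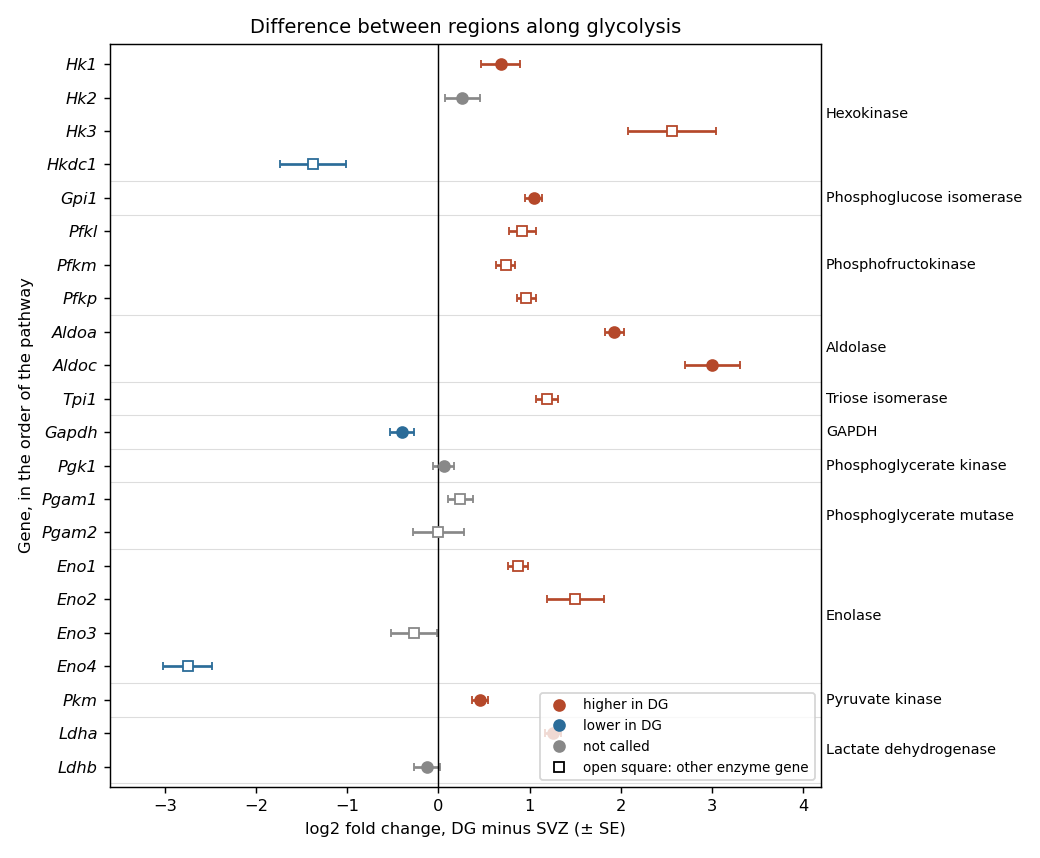
Log2 fold change, DG minus SVZ, with its SE (horizontal axis) for genes of each glycolytic step in pathway order (vertical axis). Filled circles are the 10 genes described, open squares are other enzyme genes, and colour gives the call. Most steps have a gene higher in DG, up to Aldoc at 3.0, whereas Gapdh is lower at -0.40 and Pgk1 is near 0 at 0.06.

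The other 8 lists cover the routes into and out of glycolysis and its control. Of their 81 measured genes, 42 were higher in DG, 12 were lower and 27 did not pass, beside 32.9% of all genes higher and 33.7% lower. These shares over all genes apply to each list below. The glycogen and gluconeogenesis list stood at one end, with all 14 measured members higher in DG. Pygm, the glycogen phosphorylase of muscle and astrocytes, was 12.1-fold higher (3.59, SE 0.23, adjusted p = 2.48e-07). Gyg, the primer of glycogen synthesis, was higher by 1.80, the phosphoglucomutase gene Pgm1 by 2.09 and the glucose phosphatase gene G6pc3 by 1.62.

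Most transport genes were higher in DG as well, and so were the endothelial markers. Of 8 genes of the Slc2a family, which holds the glucose transporters, 7 were higher and 0 lower. Slc2a1, the glucose transporter of the blood-brain barrier and of glia, averaged 8.33 ± 0.32 in DG libraries and 5.90 ± 0.53 in SVZ libraries (2.43, adjusted p = 4.79e-06), and Slc2a10 differed by 2.26, Slc2a13 by 2.66 and Slc2a12 by 1.49. Slc2a13 stood at 5.14 in DG 3, the library with the most mature neuron markers, and at 2.84 to 3.10 in the other DG libraries. For lactate and pyruvate transport, 5 of 7 genes were higher and 0 lower. The lactate transporter gene Slc16a1 was 4.28-fold higher (2.10, adjusted p = 5.38e-07), its partner Bsg was higher by 2.29, the second transporter gene Slc16a7 by 1.50 and Emb, another partner of these carriers, by 1.24.

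Of 12 genes of pyruvate carboxylase, pyruvate dehydrogenase and its regulation, 2 were higher, 2 lower and 8 did not pass. Pcx, pyruvate carboxylase, an enzyme of astrocytes that feeds the citrate cycle, was 4.06-fold higher in DG (2.02, adjusted p = 2.80e-07), and the inhibitory kinase gene Pdk2 was higher by 1.53. The activating phosphatase gene Pdp1 (-0.58) and the subunit gene Pdhb (-0.25) were lower. In the pentose phosphate pathway 2 of 8 were higher and 1 lower. H6pd, the form of the endoplasmic reticulum, differed by 3.85, with as few as 29 reads in an SVZ library. Rpe differed by 0.45 and G6pdx, the cytosolic entry enzyme, by -0.30. Among regulators of phosphofructokinase, 0 of 5 were higher, and Pfkfb1 (-1.11) and Tigar (-0.45) were lower.

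Of 10 genes of the shuttles that carry NADH electrons into mitochondria, 3 were higher in DG and 3 lower, shares near those over all genes (32.9% and 33.7%). All 3 measured glycerol 3-phosphate dehydrogenase genes were higher, with Gpd1 averaging 9.66 ± 0.22 in DG libraries and 7.26 ± 0.22 in SVZ libraries (2.39, adjusted p = 9.32e-08) and log2 fold changes of 1.09 for Gpd2 and 0.45 for Gpd1l. The aspartate-glutamate carrier genes Slc25a13 (-2.68, adjusted p = 7.73e-07) and Slc25a12 (-0.94, adjusted p = 3.38e-06) and the transaminase gene Got2 (-0.35) were lower. The other malate-aspartate genes, Mdh1 (0.16), Mdh2 (-0.07), Got1 (-0.15) and Slc25a11 (-0.03), did not pass.

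Regulators and hypoxia response genes were mixed, with 9 of 17 higher in DG, 4 lower and 4 not called. Epas1, which encodes the hypoxia-inducible factor subunit of endothelium and other cells, was 20.9-fold higher (4.38, adjusted p = 6.66e-07), and Hif1a, the widely expressed subunit, was not called (-0.30, adjusted p = 0.158). Targets higher in DG included P4ha1 (1.86), Ndrg1 (2.25) and Adm (4.35, with as few as 4 reads in an SVZ library). Car9, a carbonic anhydrase induced by hypoxia, was 13.6-fold higher in SVZ (-3.77, adjusted p = 2.44e-05, with as few as 13 reads in a DG library). The oxygen sensor genes Hif1an (-0.65), Egln2 (-0.58) and Egln1 (-0.48) were lower in DG.

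**Figure D5:**
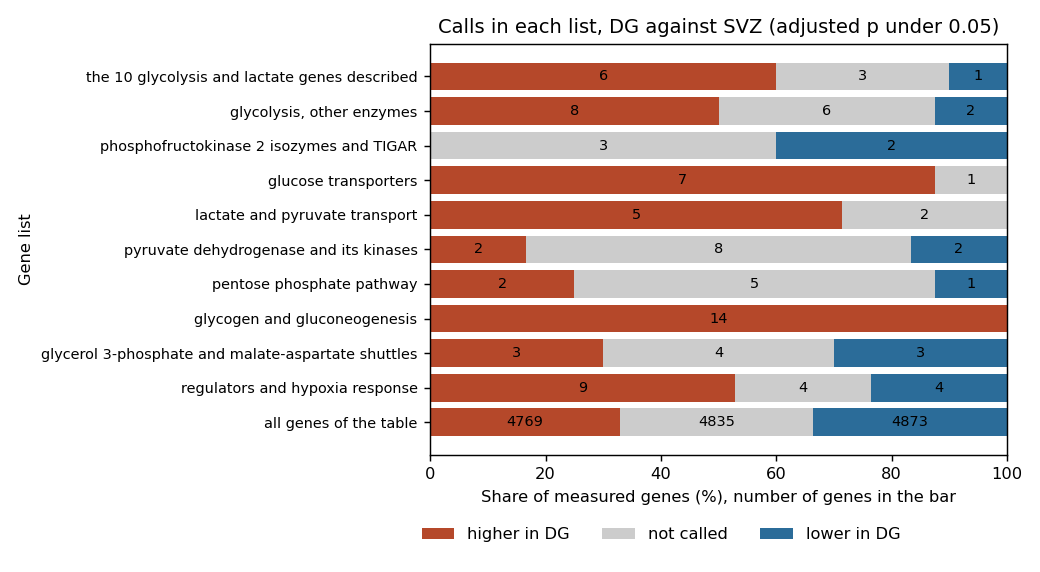
Share of measured genes (horizontal axis, percent, with the number of genes in each bar) that were higher in DG, not called or lower in DG, for the 10 genes described, 9 lists of related genes and all 14477 genes (vertical axis). All 14 glycogen and gluconeogenesis genes are higher in DG, and 0 of 5 phosphofructokinase 2 and Tigar genes are.

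For each gene, the genes with the most similar profile over the 9 libraries were taken by the root-mean-square distance of profiles centred on their own mean, among genes averaging at least 5 log2 CPM. Aldoc was closest to Car2, a carbonic anhydrase (0.152 log2 units), and Gjb6, an astrocyte connexin (0.183). Aldoa was closest to Tex264 (0.086) and Gyg (0.095). Ldha had the closest neighbours of the 10, Tmco3 (0.034) and Slc35a5 (0.046), and Gpi1 lay near Ech1 (0.066). Pkm lay near Cab39l (0.052) and Myl6 (0.057), and Hk1 near Tmem161a (0.129) and Nfic (0.141). For Gapdh they were Eef1g (0.052) and Ddx39b (0.056), for Pgk1 Glod4 (0.050) and Cuedc2 (0.059), for Ldhb Mrps18a (0.102) and Pdzd11 (0.104), and for Hk2 Rap1gds1 (0.126) and Entpd1 (0.130).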

How the data were processed

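The authors deposited 1 table of log2 values, read here as log2 CPM with 1 read added in proportion to library size and library totals as the only scaling. This form was inferred from the values: this form gave back every deposited value within 5.33e-14, and the recovered reads were whole within 0.001 for 100% of values. STAR, edgeR and mm10 are named per the submitters' processing notes. The sources used here do not give the gene counter, versions or any filter on low values. Per the labels' protocols, cDNA was primed with poly-dT, amplified and sheared, with a kit that does not mark strand and no molecular identifiers, so reads of opposite-strand genes cannot be told apart. Exons of Hk1, Gpi1, Aldoa and Gapdh share 157, 741, 25 and 68 bases with such genes. Hk1os, the gene opposite Hk1, was not measured, and the others had at most 583 reads.

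Regions were compared with lmFit and eBayes (trend) of limma 3.58.1 under R 4.3.3, with tissue the only term and Benjamini-Hochberg adjustment, on all 9 libraries and 14477 genes. Isozyme ratios used exact two-sided permutation tests (scipy 1.17.1). The fit was also run on simulated data with far fewer changed genes than were called here, so that run does not vouch for these calls. Symbols, positions and lengths (longest principal transcript) came from GENCODE M21, which named 14433 identifiers and left 44. The lists and the 10 genes were chosen with earlier results of these data known. Of each list, up to 4 genes per direction with the smallest adjusted p are named, plus uncalled glycolytic enzymes; some genes that the rules choose are not reported here; Pfkl, Pfkm, Eno2, Hk3 and Hif1a were added after their values were seen. Alternatives changed the scaling, prior count, filter, variance model, weights, block and libraries.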

Additional observations from a re-analysis of the deposited data

Results flagged for a closer look

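Among 26 sets of values, each 1 gene or ratio in 1 region, 4 had a library far from the rest of its group (Dixon's test at the 95% level). Chance flags about 1 in 20 such sets. Hk1 was 6.06 log2 CPM in SVZ 4, against 7.01 to 7.10 in the other SVZ libraries. Slc2a1 and Bsg were also lowest there, at 5.11 and 6.58 log2 CPM. Aldoc was 8.17 log2 CPM in SVZ 1, against 9.54 to 9.72 in the others, where the mean of the astroglial markers was 6.73 in SVZ 1 and 7.13 to 7.51 in the others. Ldhb was 8.94 log2 CPM in SVZ 1, against 9.37 to 9.43. The log2 ratio of Ldha to Ldhb per kilobase was -2.10 in SVZ 1, against -2.66 to -2.59, and this follows from the same Ldhb value.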

How the results depend on the processing

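The 6 higher calls among the 10 genes were kept when any 1 library was left out. Without SVZ 4, and without DG 2 and DG 3 together, 0 of the 10 were lower in DG, since Gapdh missed the threshold, and Hk1 missed it too in the second case. With any 1 library left out, the log2 difference was 1.30 to 1.51 for the ratio of Ldha to Ldhb, -1.20 to -0.82 for Aldoa to Aldoc and 0.11 to 0.57 for Hk1 to Hk2. Without DG 2 and DG 3 the first pair of ratios differed by 1.32 and -1.23 (exact permutation, adjusted p = 0.0857), where fewer splits are possible. With the replicate block they differed by 1.41 and -0.99 (exact permutation over 4 pairs, adjusted p = 0.1875), and 4 pairs cannot give a p under 0.125. The block kept 6 higher and 1 lower call among the 10 genes. Libraries with the same number did not deviate together (correlations of -0.17 to 0.01). With only 4 such pairs, this cannot settle whether the numbers pair the samples. A minimum mean of 3 log2 CPM left 2938 genes higher in DG, because fewer genes were tested, and left out Hk2.

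Scaling every library to Gapdh, chosen after seeing the data, shifted the median of all genes to 0.33. Gapdh, the only lower gene of the 10 before, became the reference and was not tested in this fit. Of the rest of the 10 genes, 8 were then higher and 0 lower, with Hk2 (0.66) and Pgk1 (0.46) called and Ldhb positive at 0.28. The 97 other genes of the 9 lists had 61 higher and 4 lower, against 50 and 14 without that scaling, and all genes 5872 higher and 1720 lower. Scaling by TMM or median of ratios moved the median of all genes to -0.02 or -0.04. Among the 10 genes Hk2 had the fewest reads, 188 to 379 in a library.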
